A study of Homo sapiens with 7 samples.

Results

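Chromatin loops seen with an antibody against CTCF were set beside those seen with an antibody against RAD21 in cells lacking ZNF143. Both lists come from HiChIP, in which neighbouring DNA ends of cross-linked chromatin are ligated, fragments bound by a protein are pulled down with an antibody, and the ligated pairs are sequenced. The members are all loops of the 2 lists, 15597 for CTCF and 10804 for RAD21, together 26401 of the 135475 loops in the 7 lists of the series. The cells were ZNF143-deleted derivatives (genotype ZNF143KO) of HEC-1-B, a line of human uterine adenocarcinoma cells, with no auxin treatment given in the labels for either library. Whether the deleted line is 1 clone is not given in the sources used here. Side values come from wild-type HEC-1-B libraries made with the same CTCF and RAD21 antibodies and with an antibody against ZNF143.

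CTCF is a zinc-finger protein that binds DNA in an oriented way and stops cohesin, the ring complex that extrudes chromatin loops. RAD21 is the subunit that closes the cohesin ring. Loops held by cohesin between CTCF sites are therefore commonly found with either antibody, whereas cohesin also lies at active promoters and enhancers. ZNF143, a zinc-finger protein of promoters, has been studied beside both.

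Each line of a list gives 2 anchors on the same chromosome and a whole-number count, taken as the number of supporting read pairs. Counts were summed to a listed total of 46220 for CTCF and 33460 for RAD21. Library depth is unknown, and the listed total does not stand in for it. Each antibody had 1 library, so every difference lacks a replicate check and no p-value is given. Intervals in brackets are 95% intervals for counting error alone. Loops with a common anchor depend on each other, which widens the true uncertainty. The lowest listed count is 2, and a loop with no match in the other list is not thereby shown to be absent from those cells. Removal of ZNF143 was not checked from these lists.

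Most loops of either list lacked a partner in the other. A loop was called shared when both its anchors, extended by 5 kb on each side, overlapped the corresponding anchors of a loop of the other list. Of the 15597 CTCF loops, 4681 were shared (30.0%, 29.3 to 30.7), and of the 10804 RAD21 loops, 4460 were shared (41.3%, 40.4 to 42.2). The numbers of shared loops were thus close, and the gap between the percentages goes with the longer CTCF list. At equal listed totals, obtained by thinning the CTCF counts in expectation, the percentages were 33.2% of CTCF loops and 35.5% of RAD21 loops. Many anchors had the same start and end in both lists. This held for 6295 anchors, 39.6% of the 15905 CTCF anchors and 49.9% of the 12620 RAD21 anchors. Loops with both anchors identical numbered 2399, which is 15.4% of CTCF and 22.2% of RAD21 loops, so the share of shared loops depended strongly on how near anchors had to lie.

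Shared loops held more of the counts than of the loops. They carried 41.8% of the CTCF total and 53.97% of the RAD21 total. A shared CTCF loop had a mean count of 4.13, against 2.46 for other CTCF loops, and the RAD21 means were 4.05 and 2.43. Counts of 5 or more were reached by 26.0% (24.8 to 27.3) of shared and 4.44% (4.07 to 4.85) of other CTCF loops. For RAD21 these shares were 23.8% (22.6 to 25.1) and 3.69% (3.25 to 4.18). The loops listed for 1 antibody alone mostly had the lowest listed count, 72.7% of them for CTCF and 73.2% for RAD21.

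Low counts prevailed in both lists, and RAD21 loops were relatively more numerous at higher counts. A count of 2 was held by 62.6% (61.8 to 63.3) of CTCF loops and 60.7% (59.8 to 61.6) of RAD21 loops. At counts of 20 or more there were 48 CTCF and 53 RAD21 loops. The ratio of RAD21 to CTCF loop numbers was 0.693 (0.676 to 0.710) over all loops, 0.672 (0.651 to 0.693) at a count of 2 and 0.730 (0.673 to 0.791) at 5 to 9. It was 0.884 (0.724 to 1.08) at 10 to 19 and 1.10 (0.733 to 1.67) at 20 or more, where the intervals include 1. The RAD21 list was thus shorter among weakly supported loops, and no such difference was detectable among the strongest. At equal listed totals the ratio was 0.922.

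The share of loops found in the other list rose with the count in each class. For CTCF loops, against 30.0% of the whole list, it was 18.7% (17.9 to 19.5) at a count of 2, 35.3% (33.6 to 37.1) at 3, 49.6% (46.8 to 52.4) at 4 and 67.5% (65.0 to 69.9) at 5 to 9. It reached 92.6% (88.3 to 95.4) at 10 to 19 and 97.9% (89.1 to 99.6) at 20 or more, where 47 of 48 loops were shared. For RAD21 loops, against 41.3% of the whole list, the share was 29.2% (28.1 to 30.3) at a count of 2, 45.6% (43.5 to 47.8) at 3, 61.1% (57.9 to 64.3) at 4 and 78.6% (76.0 to 81.0) at 5 to 9. It was 95.3% (91.3 to 97.5) at 10 to 19, and all 53 RAD21 loops with a count of 20 or more were shared (interval 93.2 to 100%). Of the loops with a count of 10 or more, 17 of 264 for CTCF and 9 of 244 for RAD21 had no partner in the other list.

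**Figure D1:**
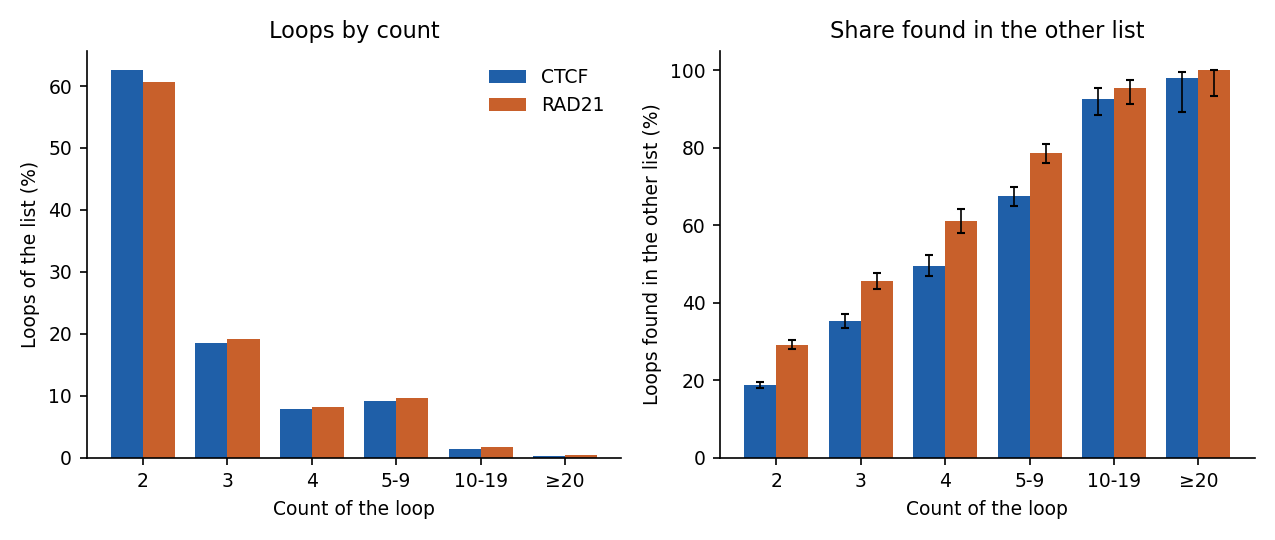
Left, loops of each list by count, as a percentage of the list (bars; blue CTCF, orange RAD21). Right, the percentage of loops found in the other list by count, with 95% Wilson intervals; it rises from 18.7% to 97.9% for CTCF and from 29.2% to 100% for RAD21.

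Loops without a partner were sorted by their anchors. An anchor was called common when it lay within 5 kb of an anchor of the other list. Of all CTCF loops, 20.4% (19.7 to 21.0; 3178 loops) were not shared although both anchors were common, 35.4% (34.7 to 36.2; 5526) had 1 common anchor and 14.2% (13.6 to 14.7; 2212) had none. Of RAD21 loops, 19.7% (18.9 to 20.4; 2127) had both anchors common, 29.3% (28.4 to 30.2; 3164) had 1 and 9.75% (9.20 to 10.3; 1053) had none. Loops with 1 common anchor were thus the largest class without a partner in both lists. The mean count fell over these classes, from 2.61 to 2.44 and 2.30 for CTCF and from 2.48 to 2.43 and 2.31 for RAD21.

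Loops that joined common anchors without being shared were looked up as paths of 2 loops in the other list. Of the 2127 such RAD21 loops, 512 (24.1%, 22.3 to 25.9) had their ends joined in the CTCF list by 2 loops that met at an anchor between them. A further 636 (29.9%) were joined by 2 loops that met only at an anchor outside. Of the 3178 such CTCF loops, 504 (15.9%, 14.6 to 17.2) were joined by 2 RAD21 loops meeting between them and 906 (28.5%) by 2 meeting outside only. An inner step was thus listed for a larger share of these RAD21 loops than of these CTCF loops, and the list searched for RAD21 loops was also the longer one. Neither path was listed for 46.0% of these RAD21 loops and 55.6% of these CTCF loops.

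RAD21 loops spanned longer distances than CTCF loops. The span, the distance between anchor midpoints, had a median of 141.7 kb (138.3 to 145.0) for RAD21 and 120.8 kb (118.0 to 123.3) for CTCF, a ratio of 1.17 (1.14 to 1.21). The quartiles were 66.9 and 271.6 kb for RAD21 and 55.1 and 247.5 kb for CTCF. The ratio was 1.30 among loops with a count of at least 3 and 1.41 among those with at least 5. It was 1.09 among loops of 40 kb to 1 Mb. The RAD21 median was the longer one on all 22 chromosomes that had at least 100 loops in each list, with ratios from 1.01 on chromosome 18 to 1.38 on chromosome 10.

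The difference lay in the loops without a partner. Shared loops had medians of 113.0 kb (109.5 to 117.0) in the CTCF list and 114.7 kb (111.2 to 119.4) in the RAD21 list, which lie close by construction, since matched loops join the same places. Other loops had medians of 125.0 kb (121.4 to 129.2) for CTCF and 163.7 kb (158.8 to 168.8) for RAD21. For CTCF these were 153.9 kb (147.6 to 162.5) with both anchors common, 119.6 kb with 1 and 99.99 kb (93.6 to 106.4) with none, the last shorter than shared loops. For RAD21 they were 174.1, 159.2 and 158.5 kb. RAD21 loops without a partner were thus longer than shared ones, with a ratio of shared to other of 0.701 (0.671 to 0.737). This ratio stayed below 1 under each alternative tried, from 0.686 to 0.812. For CTCF the ratio was 0.904 (0.863 to 0.946), and it turned to 1.16 at a minimum count of 3 and 1.40 at 5. Among better supported loops, CTCF loops without a partner were therefore shorter than shared ones, the opposite of the whole list.

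Span classes show where the lists parted. The ratio of RAD21 to CTCF loop numbers was 0.549 (0.519 to 0.581) at 20 to 50 kb, with 1923 and 3500 loops. It was 0.636 (0.602 to 0.673) at 50 to 100 kb, 0.753 (0.717 to 0.791) at 100 to 200 kb and 0.782 (0.746 to 0.821) at 200 to 500 kb. From 500 kb to 1 Mb the ratio was 0.803 (0.730 to 0.883), and at 1 to 2 Mb, with 145 and 205 loops, it was 0.707 (0.568 to 0.879). The excess of CTCF loops was thus largest at the shortest spans.

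The share of loops found in the other list followed span differently in the 2 lists. RAD21 loops, with 41.3% shared in all, had 47.9% (45.7 to 50.1) at 20 to 50 kb and 49.9% (47.8 to 52.1) at 50 to 100 kb, then 34.8% (33.1 to 36.5) at 200 to 500 kb and 24.0% (21.1 to 27.1) from 500 kb to 1 Mb. CTCF loops, with 30.0% in all, had 28.8% (27.3 to 30.3) at 20 to 50 kb, 33.9% (32.4 to 35.4) at 100 to 200 kb and 19.4% (17.0 to 22.0) from 500 kb to 1 Mb. At a count of 2, RAD21 loops of 20 to 100 kb were shared in 37.4% (35.4 to 39.4) and those of 100 to 500 kb in 26.4% (25.0 to 27.9), whereas CTCF loops had 19.1% (17.9 to 20.4) and 19.8% (18.7 to 20.9). At counts of 5 to 9 the order by span differed between the lists. CTCF loops of 20 to 100 kb were shared in 62.0% (58.5 to 65.4) and those of 100 to 500 kb in 73.8% (70.3 to 77.1), whereas for RAD21 the shares were 81.1% (77.0 to 84.6) and 77.9% (74.4 to 81.1), whose intervals overlap. At counts of 3 to 4 the orders were likewise opposite, with 37.5% (35.4 to 39.7) and 41.7% (39.5 to 43.9) for CTCF, whose intervals just overlap, and 56.1% (53.2 to 58.9) and 47.6% (45.1 to 50.1) for RAD21. The CTCF intervals of the 2 span classes did not overlap at counts of 5 to 9 and overlapped in the other count classes.

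**Figure D2:**
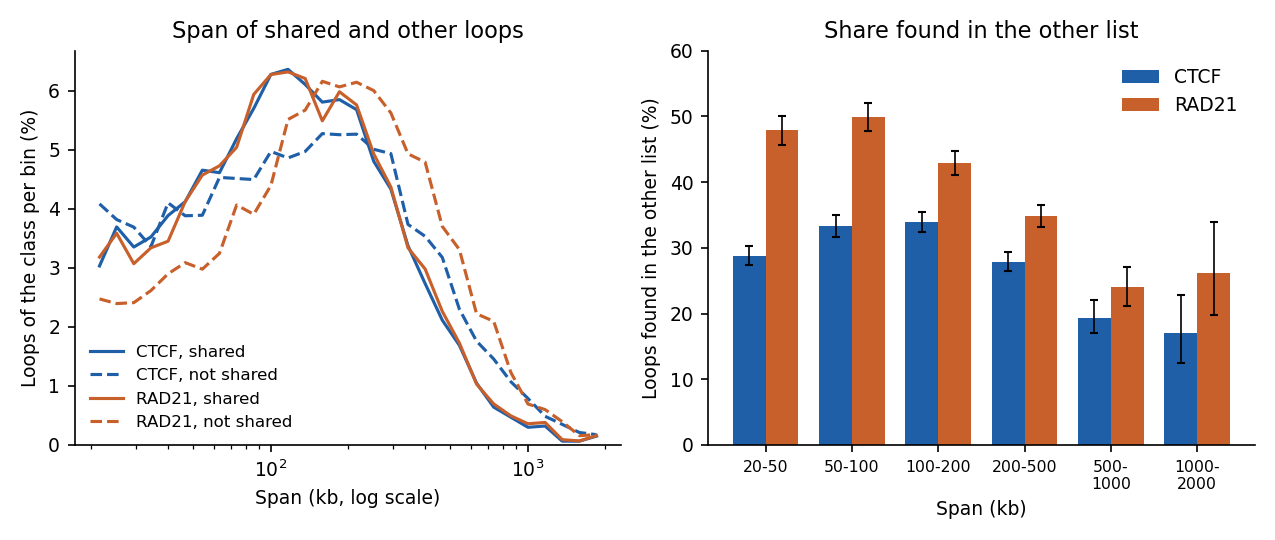
Left, the span of loops (kb, log scale) as a percentage of the class per bin, for shared loops (solid) and other loops (dashed) of the CTCF (blue) and RAD21 (orange) lists; the 2 solid lines lie on each other, and the dashed RAD21 line lies to the right (median 163.7 kb against 125.0 kb for CTCF). Right, the percentage of loops found in the other list by span, with 95% Wilson intervals.

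Where a loop was in both lists, its counts were compared. Matching loops were joined into 3900 groups, of which 3056 (78.4%) held 1 loop of each list, and counts were summed within a group and list. The CTCF count was higher in 1555 groups, the RAD21 count in 1283, and 1062 were equal. Across groups the counts of the 2 lists had a Pearson correlation of 0.561 on the log2 scale and a Spearman correlation of 0.441. These describe groups that are not independent, with many counts at the listed minimum of 2. Per 100000 of the listed total, the RAD21 count was the higher one in 67.4% of groups (65.9 to 68.9). This share depended on the scaling, since 2 equal counts give a ratio of 1.38. At equal listed totals by thinning, in loops paired one to one, RAD21 was higher in 38.6%, CTCF in 30.4% and 30.9% were tied. Called by at least 2-fold on the scaled counts, 981 groups (25.2%) were higher for RAD21 and 244 (6.26%) for CTCF. On the counts as deposited the order turned, with 516 groups (13.2%) at least 2-fold higher for RAD21 and 704 (18.1%) for CTCF, so neither antibody had the higher counts under both scalings.

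The balance of counts shifted with span. Over all groups, the CTCF count as deposited was the higher one in 50.1% (46.7 to 53.5; 412 of 822, with 203 equal and 207 higher for RAD21) at 20 to 50 kb. It was the higher one in 41.4% (38.2 to 44.6) at 50 to 100 kb, 37.6% (34.7 to 40.6) at 100 to 200 kb and 33.6% (30.6 to 36.7) at 200 to 500 kb, where 313 of 932 groups were higher for CTCF and 355 for RAD21. The median scaled ratio of RAD21 to CTCF was 1.32 (1.11 to 1.38) at 20 to 50 kb and 1.38, that of equal counts, in the 3 longer classes. Loops with identical coordinates in both lists, which involve no summing, had the higher CTCF count in 49.1% (44.7 to 53.5), 38.5% (34.6 to 42.6), 36.5% (32.9 to 40.2) and 31.4% (27.6 to 35.3) in the same order of span. The share of groups with the higher CTCF count was thus largest at the shortest spans.

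Among the 285 groups with a summed count of 20 or more over both lists, CTCF was higher in 61.3% (48.8 to 72.4; 38 of 62) at 20 to 50 kb and 43.1% (30.5 to 56.7; 22 of 51) at 200 to 500 kb, with intervals that overlap. Between them it was 48.7% (37.9 to 59.6) at 50 to 100 kb and 44.9% (35.0 to 55.3) at 100 to 200 kb. In order of span, the median scaled ratios of the 4 classes were 1.11 (0.863 to 1.38), 1.38 (1.04 to 1.63), 1.47 (1.27 to 1.69) and 1.53 (1.22 to 1.80). With identical coordinates and the same summed count, the share was 50.0% (11 of 22) at 20 to 50 kb, 60.6% (20 of 33) at 50 to 100 kb and 43.2% (16 of 37) at 100 to 200 kb, with no order by span. For strongly supported loops the share thus fell with span over the 285 groups, but the intervals overlapped and identical coordinates gave no such order. A shift with span was therefore not resolved at these numbers. In wild-type cells, as a side value, CTCF was higher in 49.5% (46.6 to 52.3) of all groups at 20 to 50 kb and 35.7% (33.8 to 37.7) at 200 to 500 kb, and in 60.1% (53.1 to 66.7) and 41.8% (36.3 to 47.4) of those with a summed count of 20 or more.

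**Figure D3:**
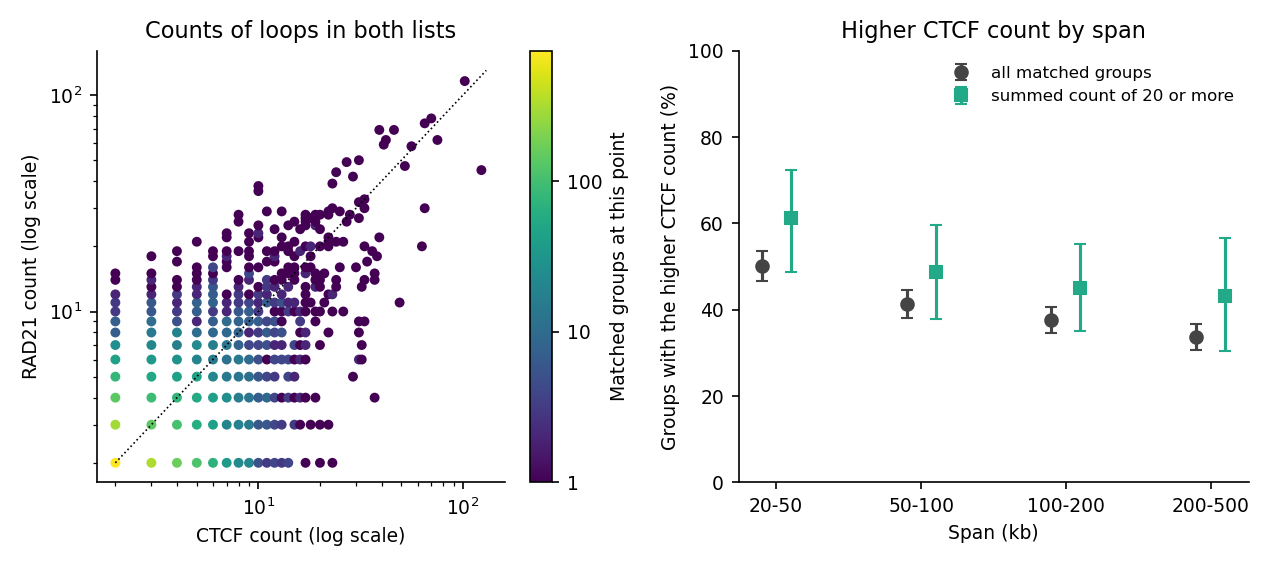
Left, CTCF against RAD21 count of each group of matched loops (both log scales; colour, number of groups at a point; dotted line, equal counts). Right, the percentage of groups with the higher CTCF count by span, for all groups (circles) and for those with a summed count of 20 or more (squares), with 95% Wilson intervals; over all groups it falls from 50.1% at 20 to 50 kb to 33.6% at 200 to 500 kb.

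The strongest shared loops were strong with both antibodies. Positions are those of the deposited lists in hg19, counted from 1. The group with the highest sum joined chromosome 1, 161534518 to 161536723, to 161615908 to 161618116 over 81.4 kb, with counts of 102 for CTCF and 116 for RAD21. Next came a group on chromosome 17 from 43212095 to 43213674, to 43274551 to 43276348 (62.6 kb), with 123 for CTCF over 3 loops and 45 for RAD21 over 2. Its ratio of scaled RAD21 to CTCF counts was 0.505, whereas the other 4 had ratios of 1.14 to 1.57. A loop on chromosome 16 from 55498344 to 55499850, to 55735210 to 55738250 (237.6 kb), had counts of 70 and 78. A group on chromosome 20 from 48802364 to 48803606, to 49080277 to 49081840 (278.1 kb), summed to 65 over 8 CTCF and 74 over 6 RAD21 loops. A group on chromosome 12 from 54095022 to 54096977, to 54139778 to 54141919 (44.8 kb), summed to 75 and 62.

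Some well supported loops had no partner. The strongest CTCF loop without one joined the same chromosome 17 anchor, 43212095 to 43213674, to 43249751 to 43251398 over 37.7 kb, with a count of 25. Both its anchors were common, so RAD21 loops were listed at each end but not between them. From that anchor, a further CTCF loop to 43323873 to 43325271 (111.7 kb, count 14) had no partner either. The other 3 were a loop between 2 wide anchors on chromosome 1, 121351046 to 121369648 and 121372192 to 121408851 (18603 and 36660 bp wide, count 16), one on chromosome 19, 48793317 to 48795313 and 48817129 to 48820597 (24.5 kb, count 14), and one on chromosome 2, 232534181 to 232540519 and 232570619 to 232575856 (35.9 kb, count 14). Of these 5 CTCF loops, 4 spanned less than 40 kb. The wild-type RAD21 list held matches to 4 of them, with counts of 5 and 5 for the 2 on chromosome 17, 2 on chromosome 19 and 4 on chromosome 2, and none to the one on chromosome 1.

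The RAD21 loops without a partner had lower counts at the top. On chromosome 16, 69429418 to 69433038 was joined to 69457921 to 69459734 over 27.6 kb with a count of 12. A count of 12 was also held by a loop of 311.8 kb on chromosome 1, 235267027 to 235268395 and 235577762 to 235581334. A loop of 424.5 kb on chromosome 11, 113175728 to 113177307 and 113599555 to 113602538, had a count of 11. A count of 10 was held by 6 loops, of which the 2 shortest were on chromosome 5, 140233897 to 140236230 and 140254134 to 140256182 (20.1 kb), and on chromosome 12, 63109768 to 63111755 and 63187146 to 63188782 (77.2 kb). No match to the chromosome 5 loop was listed in the 3 wild-type lists used, although both its anchors were common. For the chromosome 12 loop the wild-type RAD21 list gave 94 and the wild-type ZNF143 list 3, while no CTCF match was listed in either genotype. The other 3 of these RAD21 loops had wild-type CTCF counts of 5, 11 and 5 and wild-type RAD21 counts of 0, 10 and 11, in the order named.

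Shared groups with the most unequal counts were picked among those with a count of 10 or more in at least 1 list. That limit admits a group through whichever list is high, so these are examples and do not compare the lists. The lowest scaled ratio of RAD21 to CTCF, 0.120, belonged to a group on chromosome 12 from 57631981 to 57633813, to 57656930 to 57658485 (24.8 kb), with counts of 23 and 2. Groups on chromosome 16 from 66994142 to 66996750, to 67188572 to 67190869 (counts 20 and 2), and on chromosome 12 from 56586083 to 56587879, to 56615521 to 56618904 (counts 37 and 4), had ratios of 0.138 and 0.149. In the order named, these 3 groups summed 3, 2 and 2 CTCF loops against 1 RAD21 loop each. At the other end, a group on chromosome 20 from 30150201 to 30151475, to 30199898 to 30201501 had counts of 2 for CTCF and 15 for RAD21, a ratio of 10.4. Groups on chromosome 12 from 121989881 to 121991904, to 122062072 to 122065791 (2 and 14), and on chromosome 22 from 38038669 to 38041351, to 38130499 to 38132593 (3 and 18), had ratios of 9.67 and 8.29. In the order named, these 3 groups held 1 CTCF loop each against 2, 1 and 2 RAD21 loops. The ratio of 8.29 was held by 3 groups, of which the one with the longest span is named. With 2 to 4 counts on the smaller side, these ratios have wide counting error. The longest shared loop with at least 10 counts in each list spanned 1965 kb on chromosome 3, from 123437201 to 123439070, to 125402259 to 125404575, with counts of 36 and 19.

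CTCF anchors carried more loops than RAD21 anchors. The number of loops at an anchor had a mean of 1.96 (SD 1.78 over anchors) for CTCF and 1.71 (SD 1.34) for RAD21, a ratio of 0.873 (0.856 to 0.890). At equal listed totals the ratio was 0.951. A single loop was held by 58.7% (58.0 to 59.5) of CTCF and 63.2% (62.4 to 64.1) of RAD21 anchors. Anchors with 5 or more loops, called hubs, made up 7.63% (7.22 to 8.05; 1213 anchors) of CTCF and 4.26% (3.92 to 4.63; 538) of RAD21 anchors. The difference in hub share was -3.36 percentage points (-3.91 to -2.82).

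Anchors met far more often than loops did, an order favoured by the rule itself, since a shared loop needs both its anchors to match. Whether both lists drew their anchors from a common set of peaks is not given in the sources used here. With 6295 anchors of identical coordinates this bears on every share of common anchors, and its part was not tested. Of CTCF anchors, 53.9% (53.1 to 54.6) were common, and of RAD21 anchors 65.7% (64.8 to 66.5). The share rose with the number of loops. It was 40.2% (39.2 to 41.2) for CTCF anchors with 1 loop, 79.6% (77.8 to 81.3) with 3 or 4 and 98.6% (95.1 to 99.6) with 10 or more. For RAD21 anchors it was 55.0% (53.9 to 56.1) with 1 loop, 90.7% (89.1 to 92.0) with 3 or 4, and all 40 anchors with 10 or more loops were common (interval 91.2 to 100%). Among common anchors 13.2% (12.5 to 13.9) of CTCF and 6.38% (5.88 to 6.93) of RAD21 anchors were hubs. Among the rest these shares were 1.13% (0.913 to 1.40) and 0.208% (0.109 to 0.394), with 83 and 9 hubs. An anchor with more loops also has more counts and so more chance of being in both lists; the part of this was not tested. Anchor width was alike, with medians of 1869 bp for CTCF and 1879 bp for RAD21.

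**Figure D4:**
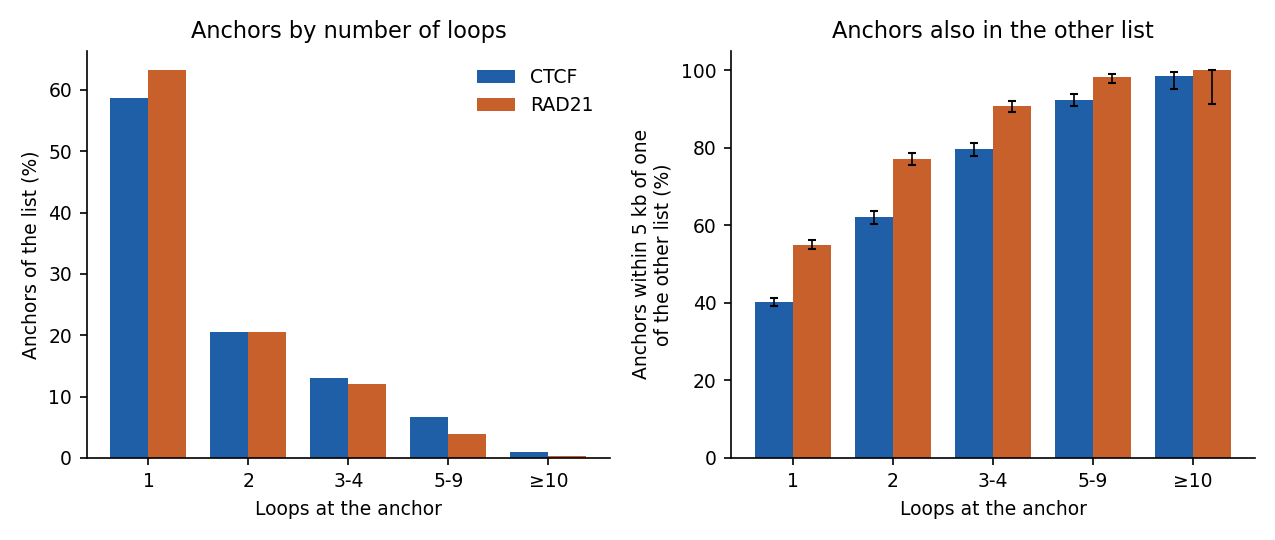
Left, anchors of each list by the number of loops they hold, as a percentage of the list's anchors (blue CTCF, orange RAD21). Right, the percentage of anchors within 5 kb of an anchor of the other list, with 95% Wilson intervals; it rises from 40.2% to 98.6% for CTCF and from 55.0% to 100% for RAD21.

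The hubs of the 2 lists coincided in part. In 6382 pairs of anchors that lay within 5 kb of each other and of no other anchor of the opposite list, the mean number of loops was 2.43 for CTCF and 1.93 for RAD21. CTCF had more loops in 38.3% of pairs, RAD21 in 19.6%, and 42.0% were equal. The pairs held 800 CTCF hubs and 382 RAD21 hubs, and 236 pairs were hubs in both lists. That is 29.5% of these CTCF hubs and 61.8% of these RAD21 hubs. The numbers of loops had a Pearson correlation of 0.569 and a Spearman correlation of 0.460 over the pairs, which share chromosomal neighbourhoods.

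The CTCF anchor with the most loops lay on chromosome 1, 225661310 to 225663660, with 27 loops (total count 214). The same anchor held 15 RAD21 loops (91). Of these, 14 CTCF and 13 RAD21 loops were shared, and the strongest partner in both lists lay 302.7 kb away, with counts of 34 and 15. Loops to higher coordinates prevailed there with both antibodies, 19 against 8 for CTCF and 11 against 4 for RAD21. CTCF loops reached up to 1777 kb and RAD21 loops up to 512.9 kb, so the longest loops of this anchor were listed for CTCF alone. The CTCF loops beyond 512.9 kb had counts of only 2 to 4, near the listed minimum.

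The next CTCF anchors were on chromosome 17, 43212095 to 43213674, with 24 loops, on chromosome 12, 57631981 to 57633813, with 24, on chromosome 17, 39818359 to 39820244, with 21, and on chromosome 6, 44041109 to 44045633, with 20, one of 2 anchors with that number. RAD21 anchors within 5 kb held 15, 8, 17 and 12 loops, from 2 anchors each in all but the last. At the chromosome 17 anchor at 43212095 the numbers of loops differed by side. To lower coordinates it had 12 CTCF loops and 4 RAD21 loops, and to higher coordinates 12 and 11. The 11 came from 2 RAD21 anchors, and some partners were counted from both, such as at 62.6 and 65.6 kb. The numbers 12 and 11 therefore do not compare numbers of partners. The largest excess of CTCF loops was equal on chromosome 12 at 57631981 (24 against 8) and on chromosome 6, 44119079 to 44120729 (19 against 3). Next came chromosome 6, 43472939 to 43475323 (16 against 3).

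The RAD21 anchor with the most loops lay on chromosome 12, 52416866 to 52420293, with 22 loops (total count 180), against 12 CTCF loops (144) from 2 anchors. Its strongest RAD21 partner, 58.8 kb away, had a count of 56, and the strongest CTCF partner, 58.9 kb away, had 54. Here the longest loops were those of RAD21, reaching 879.6 kb against 303.5 kb for CTCF, with counts of only 2 or 3 beyond that. Others were on chromosome 2, 121452478 to 121454315, with 19 RAD21 and 10 CTCF loops, on chromosome 6, 39277051 to 39278933, with 17 and 12, and on chromosome 3, 50309614 to 50312663, with 15 in both. In all, 5 anchors held 15 RAD21 loops, among them the CTCF hub on chromosome 1. Excess of RAD21 loops was largest at the anchors on chromosomes 12 and 2 and on chromosome 3, 46598274 to 46600664 (15 against 7).

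**Figure D5:**
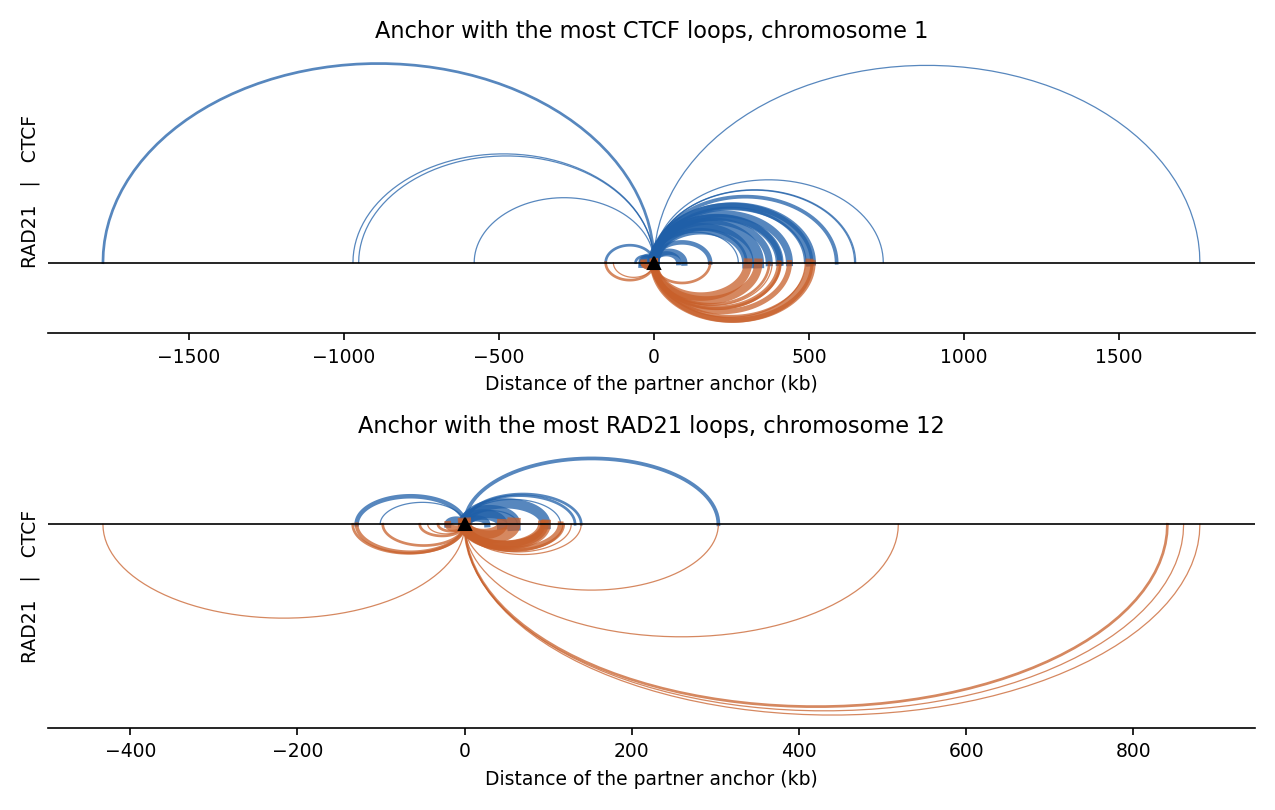
Loops of the CTCF anchor with the most loops (upper panel, 27 CTCF and 15 RAD21 loops) and of the RAD21 anchor with the most loops (lower panel, 22 RAD21 and 12 CTCF loops), drawn as arcs to the partner's distance in kb (CTCF above the line in blue, RAD21 below in orange; line width grows with the log of the count; arc height follows the span and is no separate measure). The longest arcs are those of CTCF in the upper panel and of RAD21 in the lower. Those beyond the reach of the other antibody have counts of 2 to 4 (upper) and 2 or 3 (lower).

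CTCF sites are oriented, so the direction of loops was counted at each anchor. Of anchors with 4 or more loops, 13.7% (12.2 to 15.3; 264 of 1925) had all CTCF loops on 1 side, and 26.0% (23.4 to 28.8; 262 of 1008) had all RAD21 loops on 1 side. The gap was also present at equal numbers of loops, 3 or 4. It was present in the class of 5 to 9 loops too, within which the numbers were not matched. With 3 loops the shares were 36.3% (33.8 to 38.9) for CTCF and 43.8% (40.8 to 46.8) for RAD21, with 4 loops 20.2% (17.4 to 23.3) and 32.1% (28.1 to 36.5), and with 5 to 9 loops 11.1% (9.38 to 13.2) and 22.3% (18.9 to 26.1). With 10 or more loops, 1 of 144 CTCF anchors (0.694%, 0.123 to 3.83) and 0 of 40 RAD21 anchors (interval 0 to 8.76%) were one-sided, and no gap was detectable. In these classes up to 9 loops, RAD21 anchors thus had the larger one-sided share.

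Both lists mostly pointed the same way at an anchor. In overlapping anchor pairs with a majority direction in each list and at least 2 loops in each, the direction was the same in 1683 of 1907 (88.3%, 86.7 to 89.6). Shared loops make part of this necessary. With shared loops removed, the direction was the same in 57.2% (55.5 to 58.9) of 3158 pairs with at least 1 loop left in each list, and in 232 of 374 (62.0%, 57.0 to 66.8) with at least 2. The unmatched loops of the 2 lists thus pointed the same way in somewhat over 50% of pairs.

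The chromosomes differed in how far the RAD21 list was shorter. RAD21 loops were fewer and had the larger shared percentage on all 22 chromosomes with at least 100 loops in each list. The ratio of RAD21 to CTCF loops was lowest on chromosome 22 (0.540, 0.445 to 0.654, 167 and 309 loops) and highest on chromosome 18 (0.908, 0.726 to 1.13, 157 and 173 loops). The percentage of RAD21 loops that were shared was highest on chromosome 17 (49.5%, 46.0 to 53.1) and chromosome 12 (48.2%, 44.7 to 51.8). It was lowest on chromosome 4 (25.7%, 19.2 to 33.5) and chromosome 13 (26.5%, 20.8 to 33.1). For CTCF loops it ran from 19.05% (14.8 to 24.1) on chromosome 13 to 34.6% (32.1 to 37.2) on chromosome 3. The chromosomes were chosen here as the ends of the range, after their values were seen.

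Wild-type values are given for orientation only. The wild-type CTCF and RAD21 lists have another file layout and higher listed totals (80726 and 74410), so genotype, list making and depth cannot be told apart. There, 46.4% of CTCF and 52.2% of RAD21 loops were shared, the ratio of median spans RAD21 to CTCF was 1.04 (1.01 to 1.07), and the ratio of mean loops per anchor was 0.936 (0.918 to 0.954).

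Shared loops of the deleted cells were mostly known from a wild-type list. Of the shared CTCF loops, 88.1% (87.1 to 89.0) were found among wild-type CTCF or RAD21 loops, against 40.7% (39.8 to 41.7) of the other CTCF loops. For RAD21 the shares were 87.8% (86.8 to 88.7) and 43.4% (42.2 to 44.7). Of all CTCF loops of deleted cells, 39.5% were in the wild-type RAD21 list, and of those without a RAD21 partner 23.8% (23.0 to 24.6). Of all RAD21 loops, 50.3% were in the wild-type CTCF list, and of those without a CTCF partner 29.7% (28.6 to 30.8). At least 1 anchor within 5 kb of a ZNF143 anchor of wild-type cells was held by 75.1% (73.9 to 76.3) of shared and 61.2% (60.2 to 62.1) of other CTCF loops, and by 74.6% (73.3 to 75.8) of shared and 54.9% (53.7 to 56.1) of other RAD21 loops. Over all loops the shares were 65.3% for CTCF and 63.0% for RAD21. The other loops were not alike. Those with both anchors common had 78.4% (76.9 to 79.8) for CTCF, above shared loops, and 70.9% (68.9 to 72.7) for RAD21. With 1 common anchor the shares were 61.7% and 53.6%, and with none 34.9% and 26.4%. Shared loops also had higher counts, and the part of the count in these differences was not tested.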

How the data were processed

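Of the 7 loop lists of the series, the CTCF and RAD21 lists of ZNF143-deleted cells were compared, and 3 wild-type lists gave side values. Groups were taken from the sample titles, with 1 library each. The authors deposited a whole-number count per loop, not scaled to depth, per the values of the lists. Genome build hg19 and HiC-Pro are named in the submitters' processing notes. The loop caller, filters and pooling are not given in the sources used here. The compared lists have 7 columns and the wild-type CTCF and RAD21 lists 8. No sequence or annotation of hg19 was used here, so anchors carry no gene names or motifs.

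Loops were matched with anchors extended by 5 kb (overlap of at least 1 bp), and anchors were merged within a list where they overlapped or touched. Starts were raised by 1. Shares carry Wilson intervals, loop number ratios exact binomial intervals, medians order-statistic intervals, and ratios of medians or means intervals combined on the log scale. Python 3.11.15, numpy 2.4.6, pandas 2.3.3 and scipy 1.17.1 were used, and the matching was tested on simulated lists. Named loops were the 5 shared groups with the highest summed count and the 5 strongest loops of each list without a partner. The longest group with 10 in both lists was named as well. The 3 highest and 3 lowest scaled ratios were taken among groups with 10 counts or more in at least 1 list. That limit was kept for these examples only. Named anchors were the 5 with most loops and the 3 with the largest excess in each list. Ties went to the shorter span for loops, to the longer span for the highest ratios and to the higher total count for anchors. The comparison and the alternatives were chosen with earlier results of these data known. Identical coordinates, paths of 2 loops, loop direction, the span classes of matched counts, the limit of 20 on summed counts and the 2-fold calls on deposited counts were chosen after seeing these lists. An earlier limit of 10 counts in at least 1 list was dropped for comparing the 2 counts, because it admits groups through whichever list is high (172 of 515 reached 10 in both); its shares with the higher CTCF count were 70.7% at 20 to 50 kb and 41.9% at 200 to 500 kb.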

Additional observations from a re-analysis of the deposited data

How the results depend on the processing

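Each of 10 values was recomputed under 8 alternatives, of which the match by identical coordinates was chosen after seeing the data. Of 80 values, 26 stayed inside the reported 95% interval, but 12 of these are ratios that the matching does not enter and could not change, which leaves 14. Of the rest, 52 left that interval without turning, and 2 turned. The percentages of shared loops and of common anchors have no direction, so they could not have been counted as turned. The cause was not tested except where the setting itself fixes it. No paired analysis was possible because each group had 1 library. The depth of the libraries is unknown, which limits every statement on loops missing from a list.

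The shared percentages of CTCF and RAD21 loops were 24.6% and 35.4% without extension, 34.7% and 46.2% with 10 kb, 33.9% and 44.8% at a minimum count of 3, 35.7% and 46.3% at 5, 33.2% and 35.5% with thinned CTCF counts, 26.9% and 38.8% with one-to-one matching and 15.4% and 22.2% with identical coordinates, and for RAD21 40.3% at 40 kb to 1 Mb. The common percentages of CTCF and RAD21 anchors were, in the same order, 48.9% and 61.6%, 58.4% and 69.4%, 49.99% and 59.96%, 46.2% and 54.9%, 57.6% and 58.7%, 50.4% and 63.5%, and 39.6% and 49.9%, and at 40 kb to 1 Mb 53.1% and 63.3%. At a minimum count of 3, at 5, at 40 kb to 1 Mb and with thinning, the loop number ratio was 0.728, 0.760, 0.725 and 0.922, and the ratio of loops per anchor 0.891, 0.912, 0.891 and 0.951. The span ratio of RAD21 to CTCF was 1.30, 1.41 and 1.09 at the first 3 of these. For shared to other RAD21 loops it was 0.766, 0.812 and 0.748, and 0.759 with identical coordinates. For shared to other CTCF loops it reversed to 1.16 at a minimum count of 3 and 1.40 at 5. The percentage of matched groups with the higher scaled RAD21 count was 69.4% without extension, 65.6% at a minimum count of 3, 71.6% at 5, 69.8% with one-to-one matching and 69.6% with identical coordinates, and 38.6% with thinning, where 30.9% were tied and 30.4% higher for CTCF.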

Other observations

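Loops listed with both antibodies in deleted cells and in neither wild-type list mostly had low counts. In the CTCF list they were 558 of the 4681 shared CTCF loops, with a median span of 106.9 kb (93.8 to 121.4), a mean CTCF count of 2.49 and a highest of 8. In the RAD21 list they were 546 of the 4460 shared loops (12.2%, 11.3 to 13.2), with a median span of 104.6 kb (89.1 to 119.3), a mean RAD21 count of 2.53 and a highest of 14. A count of 2 was held by 68.6% of the CTCF loops, against 35.0% of the 4123 shared loops that were in a wild-type list, and by 69.4% of the RAD21 loops, against 39.2% of 3914. Of the matched groups found so from the CTCF list, the 3 with the highest summed count, chosen after their values were seen, were on chromosome 1, 1185125 to 1186796 joined to 1439604 to 1441656 (254.7 kb, counts of 5 for CTCF and 14 for RAD21), on chromosome 5, 745507 to 747749 joined to 837966 to 840436 (92.6 kb, counts of 8 and 9), and on chromosome 7, 4723184 to 4725066 joined to 4792942 to 4794902 (69.8 kb, counts of 6 and 7 over 1 CTCF and 2 RAD21 loops). None of the 3 was in the wild-type ZNF143 list. The wild-type lists have higher listed totals and another layout.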
